A study of Mus musculus with 22 samples.

Results

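The comparison described here sets RNA captured with an antibody to phosphorylated ribosomal protein S6 (the immunoprecipitate, IP) against total RNA (the input) in the control mice of a chemogenetic experiment. Its 14 libraries, 7 IP and 7 input from the same 7 control mice, are part of 22 libraries in all and were chosen by their genotype and fraction labels. The dissected region comprised the median eminence and arcuate nucleus at the base of the hypothalamus, and the series asks what changes there when neurons that make melanin-concentrating hormone (MCH) are activated. The other 8 libraries, 4 IP and 4 input, came from MCH-hM3Dq mice, whose MCH neurons carry an activating designer receptor, and they serve here only as an independent set of animals. According to the labels, the mice of both genotypes were on a C57BL/6N background, were 10 to 13 weeks old, had been fasted for 12 h and had received clozapine N-oxide (CNO), the ligand of the receptor, 1 h before collection. The labels call the genotype of the 7 mice "control" and name no allele or Cre line for them, and all 7 received CNO and the fast, so the comparison holds no fed, CNO-free or unstimulated animal. No precipitate made with an unrelated antibody was analysed here, so RNA held by the beads or the antibody itself cannot be told apart from RNA held by phosphorylated ribosomes.

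Ribosomal protein S6 sits in the small ribosomal subunit and is phosphorylated at its tail by S6 kinases, which act below the growth-controlling kinase complex mTORC1, and by kinases of the ERK pathway. In neurons its phosphorylation rises with activity, often together with the transcription of immediate early genes, and in the arcuate nucleus it is known to rise during fasting in the AgRP neurons that drive feeding. The capture, known as phosphoTRAP, pulls down whole ribosomes with the messenger RNA they carry, so RNAs of busy cells are taken up from a homogenate of all cells, while RNAs that are not on cytosolic ribosomes should stay behind.

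IP and input of a mouse came from the same homogenate, so every comparison was made within the mouse. Values are the authors' normalized FPKM, which correct fragment counts for gene length and for the size of the library, and fold changes were fitted with limma on log2(FPKM + 1), a scale that understates the change of genes with a low FPKM. Tested genes reached an FPKM of 1 in 4 or more of the 14 libraries, and a gene was called at a Benjamini-Hochberg adjusted p under 0.05. Per-gene levels below are given as the lowest, the median and the highest FPKM over 7 mice. The gene lists were chosen with earlier results of these data known, so their shares of calls are descriptive and no independent test. The number of genes at or above an FPKM of 1 was 12409 to 13193 in the IPs and 12270 to 12840 in the inputs, and relative depth, read from the steps between low values, ran from 0.887 to 1.25 in the IPs and from 0.677 to 1.14 in the inputs, while the number of reads behind it is unknown. The IP of mouse 5 had 1515 genes at 0 and the inputs of mice 1 and 6 had 1895 and 1579, against 358 to 953 in the other libraries, and results that rest on these mice are given with and without them. In such bulk fractions more cells with the mark and more marked ribosomes per cell cannot be told apart.

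Markers of the labelled tissue were present in both fractions. Agrp, which encodes the agouti-related peptide of hunger-promoting neurons, had an FPKM of 13.2, 44.9 and 68.6 in IP against 5.88, 16.3 and 53.6 in input. Npy, the neuropeptide Y gene of the same cells, had 32.8, 103 and 380.2 in IP against 14.4, 63.0 and 144 in input. Th, which encodes the rate-limiting enzyme of dopamine synthesis, stood at 32.6, 38.3 and 81.1 in IP against 18.6, 27.0 and 53.4 in input, and the somatostatin gene Sst at 99.1, 126 and 179 in IP against 34.1, 89.5 and 125 in input. Markers of other arcuate neurons were lower in level: Pomc, the precursor of the satiety peptide α-MSH, had 4.39, 7.12 and 26.1 in IP against 4.34, 10.9 and 44.8 in input, the growth hormone-releasing hormone gene Ghrh had 6.72, 9.24 and 29.5 in IP against 0.981, 10.8 and 35.8 in input, and Kiss1 was not analysed here. Pmch, the MCH precursor gene of neurons that lie in the neighbouring lateral hypothalamus, was higher than Agrp on the same per-length scale, at 133, 279 and 672 in IP against 113, 271 and 485 in input. Rax, a transcription factor of the tanycytes that line the median eminence, and the endothelial tight junction gene Cldn5 stayed under the filter and were not tested, with medians of 0.796 and 0.147 FPKM in IP against 0.392 and 0.0284 in input.

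In the precipitate, transcription factors and effectors of the early activity response, several neuronal, chaperone and RNA-binding protein transcripts were higher than in the input. Mitochondrially encoded RNAs and small structural RNAs such as Bc1 and Rn7sk were lower by far more, and many ribosomal protein, both ferritin and some small nucleolar RNA host transcripts were lower as well. Of 13999 genes tested, limma called 678, or 4.84%, with 312 higher (2.23%) and 366 lower (2.61%) in the IP. The decreases were larger than the increases: the called genes had a median of 0.82 on the log2 scale when higher and of −1.05 when lower, and 91 of the higher genes but 200 of the lower ones differed by at least 1. The median over all genes tested was 0.03, with quartiles at −0.24 and 0.31. All 7 IP values lay above all 7 input values in 152 genes (1.09% of those tested) and below them in 156 (1.11%). Of the called genes, 260 of 312 were higher in 7 of 7 mice and 284 of 366 lower in 7 of 7. The number called ranged from 330 without mouse 2 to 768 without mouse 5, and it was 381, 338, 433, 381 and 718 without mouse 3, 4, 6, 7 and 1. The calls of 91 higher and 174 lower genes were kept whichever mouse was left out. Without mice 1, 5 and 6 together 716 genes were called, of which 436 were among the 678.

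**Figure D1:**
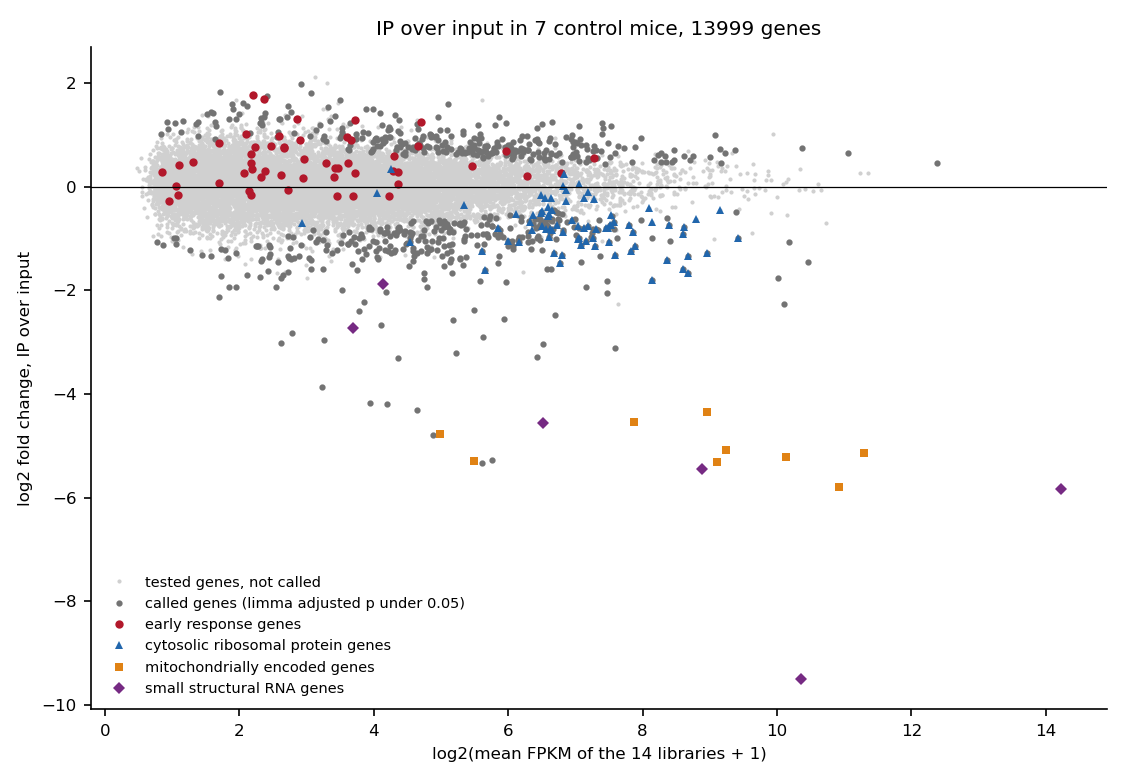
Log2 fold change of IP over input in 7 control mice (y axis) against the log2 of the mean FPKM + 1 over the 14 libraries (x axis) for the 13999 genes tested, with called genes in dark grey and 4 gene groups coloured. Early response genes lie mostly above 0, ribosomal protein genes mostly below 0, and mitochondrially encoded and small structural RNA genes reach from −1.88 down to −9.50.

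Rbbp6, Hnrnpa2b1 and Rbm39 were among the 15 higher genes with the smallest p and the same sign in all 7 mice. Rbbp6, which encodes a ubiquitin ligase that binds the retinoblastoma protein, had an FPKM of 179, 229.8 and 321 in IP against 72.2, 102 and 120.3 in input, without overlap, and was higher by 1.24 as a log2 fold change (SE 0.139, limma adjusted p = 3.71e-04). Hnrnpa2b1, an RNA-binding protein gene with roles in splicing and RNA transport, had 281, 320.2 and 391 in IP against 142, 175 and 215 in input and was 0.94 higher (SE 0.11, limma adjusted p = 4.90e-04). Rbm39, a splicing coactivator gene, had 169.7, 240.4 and 286 in IP against 73.3, 102 and 168 in input, a rise of 1.14 (SE 0.143, limma adjusted p = 9.05e-04). No IP value of these 3 genes fell within the range of the inputs. Other genes among the 15 were the splicing kinase gene Prpf4b (1.13), the chromatin-binding factor Psip1 (0.94), the histone H2A.Z chaperone Anp32e (1.01), the ubiquitin-activating enzyme Uba1 (0.93), the zinc finger gene Zfand5 (0.98), the small GTPase Rhob (0.87), the translation initiation factor Eif1a (1.22), and Pnmal2, Armcx5 and Soga3 at 0.87, 1.01 and 0.92. The imprinted noncoding RNA Peg13 (1.18, GRCm38 chromosome 15, 72805600 to 72810324) lies within Trappc9 on the same strand, so its reads and those of Trappc9 cannot be told apart. The calls of all these genes were kept without any of the 7 mice. Genes named for RNA-binding protein families, whose symbols start with Srsf, Hnrnp or Rbm, were grouped after these values had been seen: 9 of 67 tested were called higher (13.4%, against 2.23% of all genes) and 0 lower, with a median of 0.24. The number called higher was 5 without mouse 2, 4 or 7, between 6 and 10 without each of the others, and 12 without mice 1, 5 and 6.

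**Figure D2:**
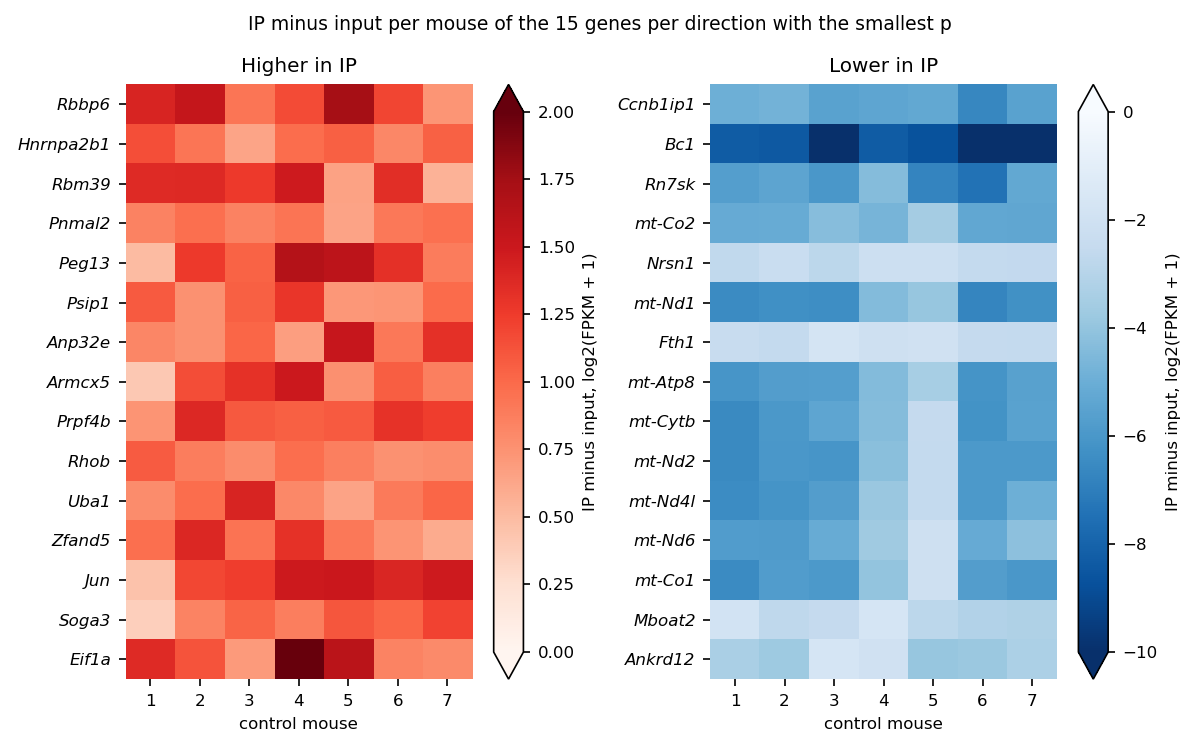
IP minus input on the log2(FPKM + 1) scale (colour) in each control mouse (columns), with colours stopping at 2 and −10. Rows are the 15 called genes per direction with the smallest p among those with the same sign in all 7 mice. They also needed an average of 5 FPKM or more in the higher fraction and a settled symbol. The uniform sign of the higher genes (left panel, above 0) and the lower genes (right panel, under 0) follows from this choice of genes. Mouse 5 has the palest blue in most mitochondrially encoded genes.

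Immediate early genes are switched on within minutes by calcium and growth factor signals and need no new protein, and their products then change the expression of later genes. Across the AP-1 factors, the EGR, NR4A and other early factors and the early effectors, 9 of 53 tested genes were called higher and 0 lower, a share of 17.0% against 2.23% of all genes tested. Of the 53, 45 had a positive fold change and 18 an unadjusted p under 0.05, and their median was 0.40 against 0.03 for all genes. The 9 were Fosb, Fosl2, Jun, Egr3, Egr1, Nr4a3, Gadd45b, Homer1 and Scg2. Their number was 5 without mouse 2, 3 or 4, 4 without mouse 7 and 10 without mouse 1, and 7 without mice 1, 5 and 6.

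Of the 6 AP-1 genes tested, which encode the subunits of a dimeric transcription factor, 3 were called and the median was 1.01. Fosb (ENSMUSG00000003545, GRCm38 chromosome 7, 19302696 to 19310051) had an FPKM of 4.89, 5.94 and 12.2 in IP against 0.743, 1.28 and 2.6 in input and rose by 1.69 (SE 0.267, limma adjusted p = 0.00389). Jun (ENSMUSG00000052684, GRCm38 chromosome 4, 95049034 to 95052222), which encodes a partner of the Fos proteins, had 29.2, 35.4 and 40.0 in IP against 10.5, 13.6 and 24.7 in input and rose by 1.25 (SE 0.174, limma adjusted p = 0.00179). Fosl2, a Fos relative with slower kinetics, had 10.1, 16.4 and 27.7 in IP against 2.2, 7.99 and 9.38 in input and rose by 1.29 (SE 0.2, limma adjusted p = 0.00362). In these 3 genes each IP value lay above each input value, and the calls were kept in all 20 alternatives. Fos itself had an FPKM of 2.74, 11.5 and 15.1 in IP against 3.12, 6.35 and 14.2 in input, groups that overlapped almost fully. Its log2 fold change was 0.46 (95% interval −0.24 to 1.16, adjusted p = 0.48 by limma), higher in 5 of 7 mice. The AP-1 list was above 0 in each of the 7 mice, with means from 0.72 to 1.25 in single mice.

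Among the EGR, NR4A and other early factors 3 of 18 were called higher and 0 lower, with a median of 0.30. Egr3, a zinc finger factor induced in active neurons, had an FPKM of 6.98, 9.00 and 12.3 in IP against 0.858, 3.71 and 4.9 in input, with no overlap, and rose by 1.32 (SE 0.26, limma adjusted p = 0.0128). Egr1, its more abundant relative, had 55.8, 74.9 and 98.3 in IP against 25.8, 50.2 and 61.6 in input, with ranges that overlapped, and rose by 0.69 (SE 0.165, limma adjusted p = 0.0337). The orphan nuclear receptor gene Nr4a3 had 6.5, 8.52 and 11.4 in IP against 2.09, 3.64 and 7.59 in input and rose by 0.90 (SE 0.235, limma adjusted p = 0.0476). The Egr1 call was kept under 11 of 20 alternatives and lost without mouse 2, 3, 4, 5, 6 or 7 (leave-one-out adjusted p 0.0232 to 0.0978), and the Nr4a3 call was kept under 13 of 20 and lost without mouse 2, 3, 4, 6 or 7 (0.0474 to 0.132). Npas4, a neuron-specific early factor, reached an FPKM of 1 in only 3 libraries, with medians of 0.568 in IP and 0.472 in input, and was not tested.

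The early effectors include signalling proteins, feedback inhibitors and secreted factors. Of 29 tested, 3 were called higher and 0 lower, 26 had a positive fold change, and the median was 0.37 and 0.21 without mice 1, 5 and 6. Gadd45b, a stress and activity sensor, had an FPKM of 2.77, 4.72 and 12.6 in IP against 0, 0.69 and 5.29 in input and rose by 1.78 (SE 0.367, limma adjusted p = 0.0164). It was higher in 7 of 7 mice although its ranges overlapped, and its call was lost without mouse 7 (leave-one-out adjusted p 0.0117 to 0.0549). The postsynaptic scaffold gene Homer1, which has an activity-induced short form, had 19.5, 29.5 and 53.1 in IP against 10.3, 17.3 and 27.2 in input and rose by 0.79 (SE 0.2, limma adjusted p = 0.043). Scg2, the secretogranin II gene of dense-core granules, had 124, 182 and 254 in IP against 90.5, 128 and 152 in input and rose by 0.56 (SE 0.127, limma adjusted p = 0.0266). Leaving out mouse 1, 2, 3, 4, 5 or 7 ended the Homer1 call (0.0481 to 0.127, kept under 10 of 20 alternatives) and leaving out mouse 2, 3, 4, 6 or 7 ended the Scg2 call (0.0158 to 0.0921, 13 of 20). Arc, which encodes a capsid-like protein of active synapses, had 2.64, 5.12 and 6.14 in IP against 0.367, 2.00 and 5.78 in input, a log2 fold change of 0.78 (95% interval 0.17 to 1.38, limma adjusted p = 0.143) that did not pass, higher in 6 of 7 mice.

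**Figure D3:**
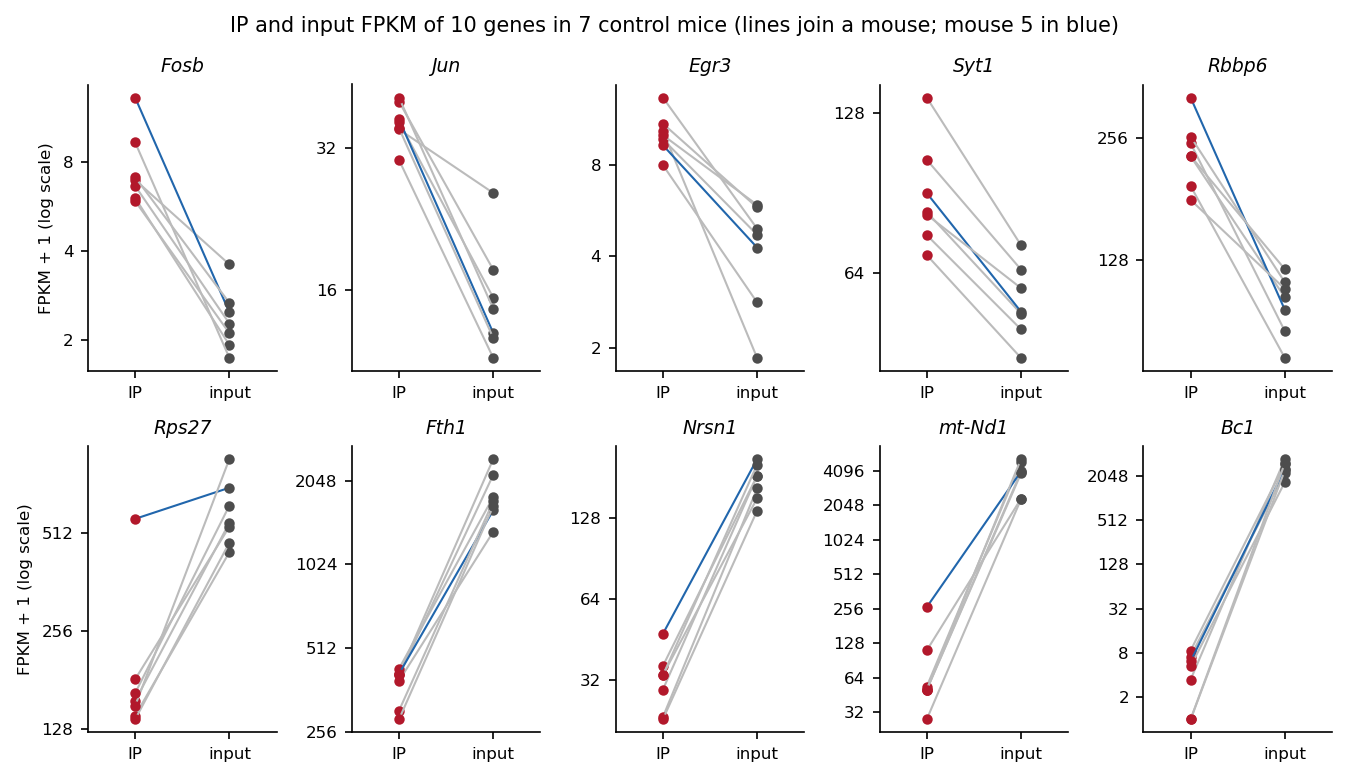
FPKM + 1 (y axes, log scale) of 10 genes in the IP (left) and the input (right) of 7 control mice, with lines joining the libraries of a mouse and mouse 5 in blue. In Fosb, Jun, Egr3 and Rbbp6 all IP points lie above all input points, in Fth1, Nrsn1, mt-Nd1 and Bc1 all lie below, and the IP point of mouse 5 stands apart in Rps27 and mt-Nd1.

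Many early response promoters hold the cyclic AMP response element, TGACGTCA in full or TGACG as its first part, to which the activity-regulated factor CREB binds. In RefSeq's GRCm38.p6 promoters, searched on both strands over the 250 bases before the annotated start, TGACG was found in 26 of 39 early response genes with an entry (66.7%), in 4 of the 7 called higher with an entry, and in 30.4% of all tested genes. The full TGACGTCA was found in 6 of the 39 (15.4%) and in 3.10% of all tested genes. Each full site also counts as a TGACG. Among all 312 genes called higher, 33.6% of the 238 with an entry held TGACG. The promoter of Fosb on the minus strand (chr7:19310046-19310295), the called early gene with the smallest p among those with the motif, and that of Scg2, also on the minus strand (chr1:79440027-79440276), which holds the full element, are shown with these letters in capitals.
Fosb: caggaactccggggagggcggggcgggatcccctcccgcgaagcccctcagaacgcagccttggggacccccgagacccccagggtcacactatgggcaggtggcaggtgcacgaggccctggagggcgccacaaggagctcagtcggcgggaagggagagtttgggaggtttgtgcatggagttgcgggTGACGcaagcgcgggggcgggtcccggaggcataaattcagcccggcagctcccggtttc
Scg2: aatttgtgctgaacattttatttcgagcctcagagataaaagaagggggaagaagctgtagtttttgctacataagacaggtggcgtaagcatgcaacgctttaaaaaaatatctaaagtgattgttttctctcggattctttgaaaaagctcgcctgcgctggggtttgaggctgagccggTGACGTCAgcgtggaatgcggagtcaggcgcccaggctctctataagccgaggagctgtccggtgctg
Scg2 carries the full palindrome close to its start, while Fosb holds the shorter match within a GC-rich stretch. These matches describe letters, and binding was not measured.

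Genes of the S6 kinase and mTORC1 pathway, which places the phosphate on S6, were called in both directions, with a median of −0.02. Of 26 tested genes, 1 was called higher (3.85%, against 2.23% of all genes) and 2 lower (7.69%, against 2.61%). Rptor, the substrate-recruiting subunit of mTORC1, had an FPKM of 12.0, 16.0 and 28.0 in IP against 4.72, 6.65 and 18.0 in input and rose by 0.95 (SE 0.247, limma adjusted p = 0.0462). Lamtor1 and Lamtor5, which help to anchor mTORC1 at the lysosome, fell by 1.27 (SE 0.281, limma adjusted p = 0.024) and 0.77 (SE 0.189, limma adjusted p = 0.0365), with Lamtor1 at 5.87, 14.3 and 31.0 in IP against 25.3, 36.7 and 53.1 in input. The 3 calls were kept under 8 of 20, 13 of 20 and 10 of 20 alternatives. They were lost without mouse 1, 2, 3, 5, 6 or 7 for Rptor, without mouse 2, 3, 4 or 6 for Lamtor1 and without mouse 2, 3, 4, 5, 6 or 7 for Lamtor5, with leave-one-out adjusted p of 0.0209 to 0.128, 0.0111 to 0.0784 and 0.0216 to 0.105. Rps6, the transcript of the antibody's target protein, had 118, 141 and 244 in IP against 159.9, 220.1 and 259 in input. Its fold change was −0.54 (95% interval −0.85 to −0.23, limma adjusted p = 0.0518), lower in 7 of 7 mice and just outside the threshold.

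Among peptide neurons of the arcuate nucleus, the AgRP list had the largest median over all 7 mice. Of its 8 tested genes 1 was called higher, all 8 had a positive fold change, and the median was 0.52, but 0.16 without mice 1, 5 and 6, below the 0.25 of the dopamine list and the 0.22 of the POMC list. Agrp (ENSMUSG00000005705, GRCm38 chromosome 8, 105566698 to 105637393) rose by 1.10 (SE 0.291, limma adjusted p = 0.0494) and was higher in 6 of 7 mice, with ranges that overlapped. The call was kept under 7 of 20 alternatives and lost without mouse 1, 2, 3, 4, 5 or 7 (leave-one-out adjusted p 0.0315 to 0.104), and without mice 1, 5 and 6 the fold change was 0.80 with an adjusted p of 0.0404 by limma. Other annotated genes share the Agrp locus, on either strand, and their reads may be counted with it. Npy was higher in 7 of 7 mice, with a log2 fold change of 0.94 (95% interval 0.27 to 1.61, limma adjusted p = 0.113) that did not pass. Its IP minus input was 3.31 in mouse 5, against 0.16 to 1.13 in the other mice. Mouse 5 had the highest mean of the list, 1.42, and mouse 1 the next, 0.68. Of the 8 POMC neuron genes Tbx3, a transcription factor of arcuate neurons and tanycytes, rose by 1.05 (SE 0.262, limma adjusted p = 0.0397), and its call was kept under 12 of 20 alternatives and lost without mouse 2, 3, 4, 5, 6 or 7 (0.0297 to 0.113). Pomc itself stood at −0.41 (95% interval −1.06 to 0.25), Th at 0.56 (0.09 to 1.03), Sst at 0.61 (0.08 to 1.14), Ghrh at 0.19 (−0.66 to 1.03) and Pmch at 0.13 (−0.29 to 0.55), and none of these 5 passed, with limma adjusted p from 0.175 to 0.842. No gene of the kisspeptin and tachykinin, dopamine or other peptide lists was called, which held 7, 7 and 16 tested genes with medians of 0.30, 0.23 and 0.16.

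Of 18 tested genes shared by all neurons, 3 were called higher (16.7%, against 2.23% of all genes) and 1 lower. The list's median was 0.28, and the mean was above 0 in each of the 7 mice, from 0.12 to 0.37. Syt1, the calcium sensor of transmitter release, had an FPKM of 68.1, 82.3 and 136 in IP against 43.2, 53.0 and 71.1 in input and rose by 0.67 (SE 0.12, limma adjusted p = 0.00827). The neurofilament gene Nefm had 36.9, 48.2 and 88.1 in IP against 24.3, 26.9 and 46.6 in input and rose by 0.75 (SE 0.145, limma adjusted p = 0.0119). Snap25, a membrane fusion protein of nerve terminals, had 4733, 6057 and 7404 in IP against 3632, 4634 and 5126 in input, the highest level of these, and rose by 0.47 (SE 0.12, limma adjusted p = 0.0435). All 3 were higher in each mouse although their ranges overlapped. The call of Snap25 survived 9 of 20 alternatives and was lost without any 1 of the 7 mice (leave-one-out adjusted p 0.0522 to 0.143), while Syt1 and Nefm passed without each mouse. The gene that fell is Snhg11, a noncoding RNA of neurons, at 9.96, 15.8 and 23.9 in IP against 25.9, 42.0 and 49.4 in input and by 1.21 (SE 0.241, limma adjusted p = 0.0133).

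Calls among synaptic, channel and receptor genes were few in number. Among 28 synaptic vesicle release genes 2 were called higher (7.14%, against 2.23% of all genes), with a median of 0.02. These 2, Syt1 and Snap25, are the same calls as on the list of genes shared by all neurons. Of 27 potassium channel and 25 sodium and calcium channel genes none was called by limma, with 6 and 5 at an unadjusted p under 0.05 and medians of 0.15 and −0.05. Of 31 GABA and glutamate receptor genes Gabra3 was called lower (3.23%, against 2.61% of all genes). Its FPKM was 12.8, 14.6 and 17.6 in IP against 23.2, 28.8 and 39.7 in input, lower by 0.92 (SE 0.166, limma adjusted p = 0.00838), with no overlap between the fractions. This gene encodes a subunit of the GABA-A receptor. Of 24 motor genes the kinesin heavy chain Kif5a, which carries cargo along axons, was called lower (4.17%, against 2.61% of all genes). Its FPKM was 73.1, 111 and 130.3 in IP against 174, 192 and 221 in input, lower by 0.80 (SE 0.123, limma adjusted p = 0.0033), again without overlap. Cntnap2, an adhesion protein of the axon, was the called member of 21 neurexin family genes and partners (4.76%, against 2.23% of all genes). It rose by 0.67 (SE 0.166, limma adjusted p = 0.0376), a call kept under 10 of 20 alternatives and lost without mouse 1, 2, 4, 5, 6 or 7 (0.0406 to 0.119). In the peptide processing list, 12 of 17 tested genes had a positive fold change, 10 had an unadjusted p under 0.05, and the median was 0.33. Scg2 was called higher (5.88%, against 2.23% of all genes) while 2 genes were called lower (11.8%, against 2.61%). Pcsk1n, which encodes an inhibitor of a prohormone-cleaving enzyme, had 11.6, 18.0 and 22.6 in IP against 37.3, 48.7 and 66.3 in input and fell by 1.44 (SE 0.186, limma adjusted p = 0.00106), and Cpe, the carboxypeptidase that trims peptide hormones, had 129, 196 and 250.2 in IP against 229.6, 319 and 373 in input and fell by 0.65 (SE 0.149, limma adjusted p = 0.0286). The Pcsk1n ranges did not overlap and its call was kept throughout, while the Cpe call was lost without mouse 2, 3, 4 or 7 (0.00993 to 0.0871).

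Transcripts of the ribosome itself were lower in a ribosome precipitate. Of 78 cytosolic ribosomal protein genes tested, 45 were called lower (57.7%, against 2.61% of all genes) and 0 higher, and 74 had a negative fold change. The large subunit accounted for 23 of 45 genes with a median of −0.74, and the small subunit for 22 of 33 with −0.86. Rps27, of the small subunit, had an FPKM of 136, 156 and 566 in IP against 447, 551 and 864 in input and fell by 1.66 (SE 0.2, limma adjusted p = 7.03e-04). Its highest IP value, that of mouse 5, lay within the range of the inputs, while the other 6 IPs lay below every input. Rpl13a, of the large subunit, had 78.9, 103 and 399 in IP against 377, 404 and 514 in input and fell by 1.80 (SE 0.236, limma adjusted p = 0.00123). Rps3 had 84.8, 94.7 and 197 in IP against 201, 268 and 329.6 in input, without overlap, and fell by 1.31 (SE 0.149, limma adjusted p = 4.52e-04). Rps21, Rps4x, Rpl9 and Rpl37 fell by 1.42, 1.13, 1.33 and 1.32, with limma adjusted p from 0.00203 to 0.00653, and each was lower in 7 of 7 mice. The mean of the small subunit genes was −0.00 in mouse 5, against −1.69 to −0.52 in the other mice, and that of the large subunit genes was 0.18 against −1.44 to −0.28. The number called lower was 56 without mouse 5 and 56 without mice 1, 5 and 6, but 26, 24, 27 and 25 without mouse 2, 4, 6 and 7. Many ribosomal protein genes have near-identical processed copies in the genome, among which the authors' counting could have split reads, so the values of single genes are uncertain.

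Messenger RNAs of ribosomal proteins start with a run of pyrimidines, the terminal oligopyrimidine tract, through which their translation is tied to mTORC1. A run of 7 or more pyrimidines beginning with C, searched on the transcribed strand from 15 bases before to 25 after RefSeq's annotated start, was found in 30 of 57 ribosomal protein genes with a promoter entry (52.6%), in 14 of 31 of those called lower (45.2%) and in 22.2% of all tested genes. Among all genes called lower it was found in 28.5%, and among those called higher in 25.6%. The 3 called ribosomal protein genes with the smallest p among those with the run are shown from 10 bases before to 20 after the start, with the run in capitals: Rps27 on the minus strand (chr3:90213629-90213658), Rpl13a on the minus strand (chr7:45128726-45128755) and Rps21 on the plus strand (chr2:180257369-180257398).
Rps27: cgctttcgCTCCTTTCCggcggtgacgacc
Rpl13a: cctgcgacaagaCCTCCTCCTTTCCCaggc
Rps21: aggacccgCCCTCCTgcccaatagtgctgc
The annotated start is that of RefSeq and may lie a few bases from the start used in this tissue.

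Factors that serve the ribosome did not follow its proteins as a group. Of 36 initiation factor genes 2 were called higher (5.56%) and 3 lower (8.33%), with a median of 0.09. Of 13 elongation and poly(A) factor genes 2 were higher (15.4%) and 2 lower (15.4%), with a median of −0.10. Over all genes tested 2.23% were called higher and 2.61% lower, so both lists held more calls than that in both directions. Eif1a, which helps the scanning ribosome find the start codon, had an FPKM of 87.4, 122 and 187 in IP against 32.9, 51.8 and 74.9 in input and rose by 1.22 (SE 0.173, limma adjusted p = 0.00203), without overlap. Eif2s2, a subunit of the factor that brings the initiator tRNA, rose by 0.66 (SE 0.14, limma adjusted p = 0.019), and its call was lost without mouse 2, 3 or 4 (0.0237 to 0.0712). The helicase gene Eif4a2 had 486, 706 and 1090.1 in IP against 1224, 1592 and 1713 in input and fell by 1.06 (SE 0.159, limma adjusted p = 0.00274), without overlap, and hosts 5 annotated small RNA genes on its strand. Eif3f, of the scaffold factor eIF3, fell by 0.82 (SE 0.161, limma adjusted p = 0.0127). Elongation factors moved in both directions: Eef1a2, the form used in neurons and muscle, had 123, 181 and 195 in IP against 83.6, 96.3 and 121 in input and rose by 0.81 (SE 0.136, limma adjusted p = 0.00541). Eef1g had 62.1, 82.3 and 198 in IP against 192, 228 and 269 in input and fell by 1.34 (SE 0.169, limma adjusted p = 9.59e-04). Btf3, a nascent-chain factor, rose by 0.66 (SE 0.159, limma adjusted p = 0.0334; lost without mouse 1, 2, 3, 4 or 7, 0.0322 to 0.101) and Eef1b2 fell by 0.73 (SE 0.176, limma adjusted p = 0.0345; lost without mouse 2, 3, 6 or 7, 0.0139 to 0.111). Of 67 mitochondrial ribosomal protein genes only Mrps17 was called, higher by 0.77 (SE 0.151, limma adjusted p = 0.0124; lost without mouse 2, 0.0166 to 0.0506), and the list's median was −0.01, unlike that of the cytosolic lists.

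Both ferritin transcripts were lower. Ferritin stores iron, and its messenger RNAs carry an iron-responsive element, a hairpin near the 5′ end to which iron regulatory proteins bind when iron is scarce and so block the start of translation. Fth1, the heavy chain (ENSMUSG00000024661, GRCm38 chromosome 19, 9980598 to 9985098), had an FPKM of 282, 406 and 429.7 in IP against 1340.0, 1723 and 2449 in input and fell by 2.26 (SE 0.128, limma adjusted p = 6.46e-07). Ftl1, the light chain (ENSMUSG00000050708, GRCm38 chromosome 7, 45457944 to 45459884), had 55.2, 64.2 and 115 in IP against 169, 194 and 257 in input and fell by 1.45 (SE 0.167, limma adjusted p = 4.52e-04). In both, every IP value lay below every input value, and both calls were kept in all 20 alternatives. The elements in the 5′ untranslated region, from the RefSeq GRCm38.p6 genome, are shown with the loop CAGTGN in capitals, for Fth1 on the plus strand (chr19:9982732-9982761) and for Ftl1 on the minus strand (chr7:45459778-45459807).
Fth1: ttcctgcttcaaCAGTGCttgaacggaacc
Ftl1: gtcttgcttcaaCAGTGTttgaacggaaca
The letters CAGTGN with CAA before and TTG after them were searched on the transcribed strand in the first 300 bases of annotated protein-coding transcripts and found in 6 of 21877 genes. The other 4 of these, Ftl1-ps1, Mettl27, Taf6l and Trip4, were not called, with log2 fold changes of −0.56, 0.06, 0.24 and −0.05 and limma adjusted p from 0.246 to 0.921. The loop alone, CAGTGN, was found in 51.3% of genes.

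Of 6 tested entries for small structural RNAs, which act without being translated, 5 were called lower, with a median of −4.997. Bc1 had the largest decrease of all genes tested. Bc1 (ENSMUSG00000115783, GRCm38 chromosome 7, 144914470 to 144914637) is a noncoding RNA of rodent neurons, transcribed by RNA polymerase III and carried into dendrites, where it represses translation. Its FPKM was 0, 4.28 and 7.63 in IP against 1684, 2533 and 3464 in input, with 2 IPs at 0, and it fell by 9.50 (SE 0.389, limma adjusted p = 4.13e-08). On average it made up 0.000887% of the summed FPKM of the IPs and 0.576% of that of the inputs. Rn7sk, the 7SK RNA that holds the elongation factor P-TEFb inactive in the nucleus, had 328, 582 and 1323 in IP against 25164, 30017 and 59095 in input and fell by 5.84 (SE 0.283, limma adjusted p = 2.19e-07). On average it made up 0.170% of the summed FPKM of the IPs and 8.14% of that of the inputs. Rmrp, the RNA of the nucleolar RNase MRP, had 0, 6.84 and 33.0 in IP against 85.9, 161 and 245 in input and fell by 4.55 (SE 0.525, limma adjusted p = 4.52e-04). Ccnb1ip1 (GRCm38 chromosome 14, 50789248 to 50807732), at 8.31, 24.7 and 27.2 in IP against 674, 936 and 1192 in input and lower by 5.44 (SE 0.189, limma adjusted p = 1.11e-08), is listed as protein-coding but contains the RNase P RNA gene Rpph1 on its strand, and the table cannot show which of them its values measure. No range of IP and input values overlapped in these 4 genes. Bc1 is shown whole, on the plus strand (chr7:144914470-144914637), with its A-rich central stretch of 60 bases in capitals, and Rn7sk by its first 120 bases on the minus strand (chr9:78175514-78175633).
Bc1: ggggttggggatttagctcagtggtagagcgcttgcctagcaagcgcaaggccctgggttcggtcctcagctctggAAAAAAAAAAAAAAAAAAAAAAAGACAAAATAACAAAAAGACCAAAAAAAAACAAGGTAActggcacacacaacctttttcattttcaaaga
Rn7sk: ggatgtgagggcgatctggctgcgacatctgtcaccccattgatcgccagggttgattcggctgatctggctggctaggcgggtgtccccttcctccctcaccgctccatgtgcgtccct
The A-rich stretch of Bc1 runs from base 77 to base 136 and lies inside the RNA, while a messenger RNA has its poly(A) tail at the end.

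Of 7 tested genes on a list of nuclear long noncoding RNAs, 4 were called lower and Peg13 higher, with a median of −1.21. The number called lower was 2 without mouse 3 and 2 without mice 1, 5 and 6. Noncoding RNAs in general did not share that median: of 348 genes annotated as long intergenic noncoding RNAs 21 were called lower (6.03%, against 2.61% of all genes) and 6 higher, with a median of 0.06. Of 305 antisense genes 2 were called lower (0.656%, against 2.61% of all genes) and 9 higher (2.95%, against 2.23%), with a median of 0.12. Rmst, a noncoding RNA of neural progenitors and midbrain neurons, had an FPKM of 10.3, 15.6 and 34.8 in IP against 31.4, 39.0 and 63.8 in input and fell by 1.34 (SE 0.191, limma adjusted p = 0.00203). Miat, a nuclear RNA of neurons, had 0.147, 0.526 and 0.94 in IP against 0.853, 2.54 and 5.4 in input and fell by 1.32 (SE 0.272, limma adjusted p = 0.016), a call lost without mouse 3 (0.0231 to 0.0538). Host genes of small nucleolar RNAs have introns that release guides for ribosomal RNA modification, and their spliced RNA is mostly not made into protein. They were called lower in 6 of 15 entries of 14 genes (40%, against 2.61% of all genes) and higher in none. Of the 15 entries, 9 had an unadjusted p under 0.05, and the median was −1.08. Gas5 had 275, 654 and 2899 in IP against 1174, 2053 and 2183 in input and fell by 1.46 (SE 0.317, limma adjusted p = 0.0217). Zfas1 had 9.96, 16.4 and 58.8 in IP against 42.8, 54.3 and 59.8 in input and fell by 1.39 (SE 0.268, limma adjusted p = 0.0119). Snhg12 had 17.1, 40.8 and 105 in IP against 58.3, 90.6 and 115 in input and fell by 1.15 (SE 0.208, limma adjusted p = 0.00851). In each of these 3 genes the highest IP value was that of mouse 5 and lay at or above some inputs, and each was lower in at least 6 of 7 mice. Snhg8 fell by 1.82 (SE 0.412, limma adjusted p = 0.0262). Snhg14, named after its values were seen, has 2 entries, of which the one at a mean FPKM of 2.04 in IP and 6.79 in input was called lower by 1.35 (limma adjusted p = 0.0375), a call lost without mouse 1, 2, 3, 4, 6 or 7 (0.0239 to 0.112). The other, at 1470.0 in IP and 1508 in input, was not called, at −0.08 (limma adjusted p = 0.862). The calls of Gas5 and Snhg8 were lost without mouse 2, 3, 4, 6 or 7 and without mouse 2, 3 or 6 (0.00229 to 0.0691 and 0.00794 to 0.0774). The number of host genes called lower was 2 without mouse 2, 3 or 6 and 3 without mouse 4.

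Genes with 2 or more annotated small RNA genes inside them, on the same strand, were called lower more often than genes with none. With 2 or more such small RNA genes, 24 of 111 tested genes were called lower (21.6%) and 1 higher, against 319 of 13412 (2.38%) with none inside. After leaving out the ribosomal and mitochondrially encoded protein genes the shares were 14.7% of 95 and 2.14% of 13355. The 1 gene called higher is Hspa8, the constitutive heat shock protein. The median fold change of the 95 genes was 0.11, so the called decreases did not extend to the group as a whole. The 24 include host genes named above, such as Gas5, Zfas1 and Snhg12. With exactly 1 small RNA gene inside, 23 of 476 genes were called lower (4.83%). Without the ribosomal and mitochondrially encoded protein genes this was 12 of 462 (2.60%), near the 2.61% of all genes. Reads of the small RNAs and of the host transcript were not separated in the table.

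**Figure D4:**
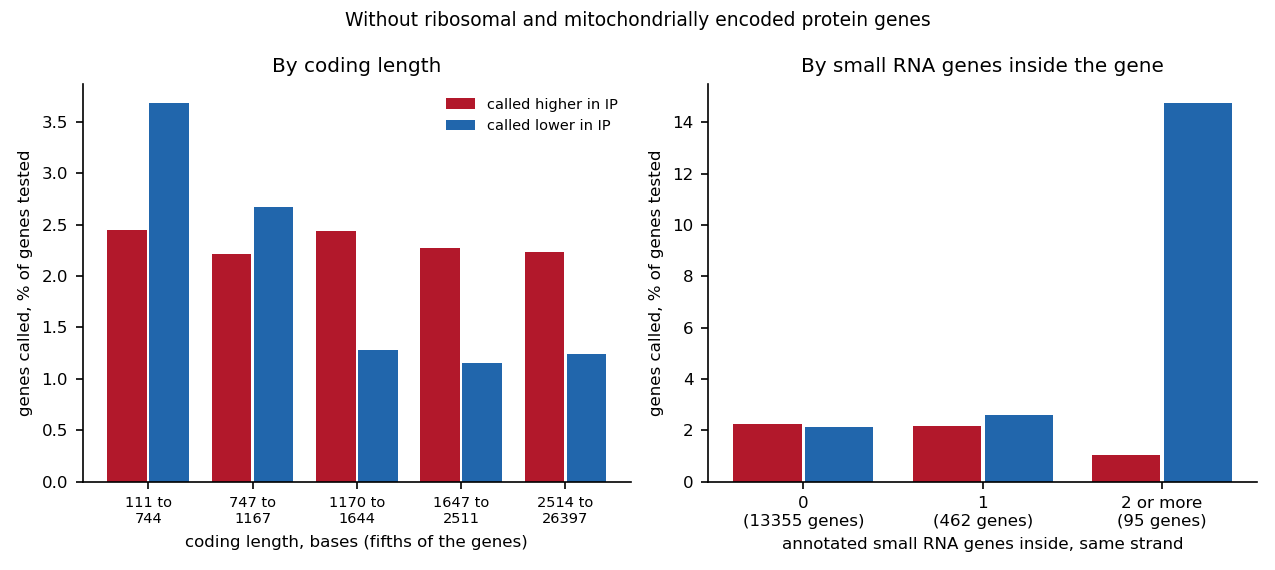
Share of tested genes called higher (red) and lower (blue) in the IP, in percent (y axes), by quintile of coding length (left) and by the number of annotated small RNA genes inside the gene on its strand (right), without ribosomal and mitochondrially encoded protein genes. Lower calls make up 3.68% of the shortest quintile and 1.24% of the longest, and 14.7% of genes with 2 or more small RNA genes inside.

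Coding length went with the lower calls and not with the higher ones. Of protein-coding genes in the shortest quintile, with 111 to 744 coding bases, 5.26% were called lower, against 1.24% in the longest, with 2514 to 26397, while the shares called higher were 2.38% and 2.23%. Without ribosomal and mitochondrially encoded protein genes the lower shares were 3.68% and 1.24%. Genes are not independent replicates, and length was not tested against other gene properties.

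RNAs made inside mitochondria, which are translated by the mitochondrial ribosomes and not by the cytosolic ones the antibody binds, were all lower. The 9 mitochondrially encoded protein genes with values were each called, with log2 fold changes from −5.79 to −4.35 and a median of −5.14. mt-Nd1, of respiratory complex I, had an FPKM of 26.7, 49.4 and 263 in IP against 2309, 4004 and 5186 in input and fell by 5.79 (SE 0.31, limma adjusted p = 3.63e-07). mt-Co1, of cytochrome c oxidase, had 53.4, 85.4 and 1329.9 in IP against 3451, 4738 and 5545 in input and fell by 5.14 (SE 0.421, limma adjusted p = 1.95e-05). mt-Cytb, of complex III, had 25.3, 37.3 and 433 in IP against 1495, 2301 and 2827 in input and fell by 5.21 (SE 0.375, limma adjusted p = 5.63e-06). The highest IP value of each was that of mouse 5, where the mean of the 9 genes was −2.68, against −6.15 to −4.13 in the other mice. These transcripts made up 0.154% of the summed FPKM of the IPs, but 0.640% in mouse 5, and 3.14% of that of the inputs. The methionine tRNA gene mt-Tm fell by 5.28 (SE 0.546, limma adjusted p = 1.69e-04), with a median of 0 in IP and of 95.5 in input. Gm28439 and Gm28661, annotated pseudogenes on chromosome 1 within a nuclear copy of mitochondrial sequence, fell by 4.32 and 4.79, and their reads may be shared with the mitochondrial genome. Nuclear genes of the same respiratory complexes did not follow: of 67 tested, Ndufa2 of complex I was called, lower by 0.60 (SE 0.149, limma adjusted p = 0.0376; kept under 10 of 20 alternatives and lost without mouse 1, 2, 3, 4, 6 or 7, 0.0284 to 0.119), and the list's median was 0.10.

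Protein-coding genes outside these groups were also among the 15 decreases with the smallest p. Nrsn1, which encodes a membrane protein of neuronal vesicles, had an FPKM of 21.9, 32.4 and 46.5 in IP against 135, 182 and 210.1 in input and fell by 2.47 (SE 0.131, limma adjusted p = 3.63e-07). Mboat2, a phospholipid acyltransferase gene, had 6.21, 7.98 and 13.9 in IP against 22.7, 51.0 and 106 in input and fell by 2.56 (SE 0.211, limma adjusted p = 2.00e-05). Ankrd12, which encodes a nuclear protein with ankyrin repeats, had 25.4, 36.2 and 47.1 in IP against 112, 372 and 586 in input and fell by 3.12 (SE 0.262, limma adjusted p = 2.34e-05). None of their IP values reached the inputs, and their calls were kept in all 20 alternatives. The selenoprotein gene Selenow, picked after its value was seen, fell by 2.05 (SE 0.235, limma adjusted p = 4.52e-04). It was 1 of 2 lower calls among 21 selenoprotein and related genes (9.52%, against 2.61% of all genes). The other of the 2 calls was lost without mouse 1, 2, 3, 4, 6 or 7.

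Genes on the chaperone list were called higher more often than genes in general. Of 29 tested chaperone genes of the cytosol, the endoplasmic reticulum and mitochondria 6 were called higher and 0 lower (20.7%, against 2.23% of all genes), the median was 0.28, and the mean was above 0 in each of the 7 mice. Dnaja1, a cochaperone of the Hsp70 family, had an FPKM of 188, 297 and 468 in IP against 139.7, 167 and 194 in input and rose by 0.76 (SE 0.143, limma adjusted p = 0.0102). Hsp90aa1, the inducible Hsp90 gene, had 362, 364 and 453 in IP against 229, 256 and 295 in input and rose by 0.59 (SE 0.103, limma adjusted p = 0.00693). Hspd1, the mitochondrial chaperonin gene, had 96.4, 109 and 133 in IP against 66.2, 69.3 and 75.2 in input and rose by 0.66 (SE 0.119, limma adjusted p = 0.00866), and Hspa4, an exchange factor for Hsp70, rose by 0.62 (SE 0.122, limma adjusted p = 0.0128). The ranges did not overlap for Hsp90aa1, Hspd1 and Hspa4. The number called was 3 without mouse 4, where the Hspa4 call was lost with a leave-one-out range of 0.00708 to 0.0507, and 8 without mouse 5. Genes of the integrated stress response, which is set off by misfolded proteins or amino acid shortage, gave 0 limma calls among 16 tested and 0 at an unadjusted p under 0.05. Of 31 proteasome genes only Psmd14, a lid subunit that removes ubiquitin, was called, higher by 0.65 (SE 0.152, limma adjusted p = 0.0309; kept under 12 of 20 alternatives and lost without mouse 1, 2, 3, 4 or 5, 0.0251 to 0.0887).

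Of 17 glycolytic enzyme genes 3 were called higher (17.6%, against 2.23% of all genes) and 0 lower, with a median of 0.18. Pkm, the pyruvate kinase gene, had an FPKM of 111, 149 and 182 in IP against 77.4, 102 and 136 in input and rose by 0.58 (SE 0.144, limma adjusted p = 0.0376). Eno1, an enolase gene, had 46.1, 82.8 and 97.0 in IP against 41.5, 53.9 and 63.1 in input and rose by 0.57 (SE 0.138, limma adjusted p = 0.0346). Both calls were lost without mouse 2, 3, 4, 6 or 7 (0.0128 to 0.119 for Pkm and 0.0129 to 0.11 for Eno1). Gapdh had 9.73, 12.9 and 74.1 in IP against 3.98, 5.42 and 8.45 in input and rose by 1.51 (SE 0.301, limma adjusted p = 0.0136), without overlap and with its highest IP value, that of mouse 4, far above the rest. The level of Gapdh is low for this abundant enzyme, and its many processed copies make its value uncertain. Glycolytic genes had a mean of −0.12 in mouse 5, against 0.22 to 0.48 in the other mice.

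Circadian and imprinted genes gave isolated calls. Of 18 circadian clock genes 2 were called higher (11.1%, against 2.23% of all genes), both transcriptional repressors, Nr1d1 and Bhlhe40. Nr1d1 had an FPKM of 21.6, 34.8 and 47.3 in IP against 12.4, 17.8 and 25.7 in input. It was higher by 0.79 (SE 0.186, limma adjusted p = 0.0312). The FPKM of Bhlhe40 was 14.8, 27.0 and 35.1 in IP against 9.26, 15.2 and 19.9 in input, higher by 0.83 (SE 0.217, limma adjusted p = 0.0483). Leaving out mouse 2, 3, 4, 6 or 7 ended either call (0.011 to 0.0977 and 0.0373 to 0.135). Of 20 genes on a list of imprinted genes, which does not hold Peg13, 2 were called higher (10%, against 2.23% of all genes). Both are expressed from the paternal allele. Zrsr1, a splicing factor gene, had an FPKM of 31.0, 44.6 and 50.5 in IP against 12.4, 15.7 and 25.2 in input, without overlap, and rose by 1.35 (SE 0.2, limma adjusted p = 0.00266). Usp29, next to Peg3, had 89.6, 170.3 and 201 in IP against 66.5, 78.7 and 112 in input and rose by 0.87 (SE 0.168, limma adjusted p = 0.0119). Of 40 chromatin modifier genes none was called by limma, with 11 at an unadjusted p under 0.05 and a median of −0.00. The glucocorticoid and fasting response list had 0 calls among 17 genes, 1 at an unadjusted p under 0.05, and a median of 0.05.

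Some myelin genes and single markers of other glia were lower, and the glial lists stood lowest in mouse 5. Of 16 oligodendrocyte genes 4 were called lower (25%, against 2.61% of all genes) and 0 higher. The number called lower was 3 without mouse 5 and 1 without any other single mouse. Of the 16 genes 7 had a positive and 9 a negative fold change, from −0.95 to 0.37. Their median was −0.40, but −0.06 without mice 1, 5 and 6. Mobp, a myelin protein gene, had an FPKM of 58.0, 88.2 and 139 in IP against 106, 147 and 215 in input and fell by 0.68 (SE 0.126, limma adjusted p = 0.00992). Mbp, the myelin basic protein gene, had 377, 543 and 793 in IP against 492, 656 and 1142 in input and fell by 0.48 (SE 0.118, limma adjusted p = 0.0366), and the myelin gene Mal fell by 0.95 (SE 0.244, limma adjusted p = 0.0433). All 3 were lower in 7 of 7 mice, with ranges that overlapped. Mobp passed without each mouse, but the Mbp call was lost without any 1 of the 7 mice (0.0522 to 0.122), and that of Mal without mouse 1, 2, 3, 4, 6 or 7 (0.0344 to 0.104). Among 12 astrocyte genes S100b was called, at 56.2, 82.5 and 123 in IP against 105, 113 and 162 in input and lower by 0.63 (SE 0.153, limma adjusted p = 0.036; lost without mouse 2, 3, 4, 5, 6 or 7, 0.0072 to 0.109). Gfap, the astrocyte filament gene, and Aqp4, their water channel, stood at −0.21 (95% interval −0.58 to 0.16) and −0.41 (−0.90 to 0.08) and did not pass (0.536 and 0.351, limma adjusted p). Of the 12 astrocyte genes 4 had a positive and 8 a negative fold change, from −0.63 to 0.51. Their median was −0.19, but 0.09 without mice 1, 5 and 6, and the list mean was above 0 in 4 of 7 mice. Ccdc153, of ciliated ependymal cells, had 0.496, 3.15 and 5.72 in IP against 3.92, 9.28 and 13.9 in input and fell by 1.37 (SE 0.235, limma adjusted p = 0.00632). It was the 1 called gene of 8 tested on the ependymal list, where 3 had a positive and 5 a negative fold change. The members ranged from −1.37 to 1.42, with a median of −0.05 that was 0.10 without mice 1, 5 and 6. No microglial, endothelial, mural or precursor cell gene was called by limma, with 2, 1, 2 and 1 at an unadjusted p under 0.05. Of the 12 microglial genes 6 had a positive and 6 a negative fold change, from −1.35 to 0.66, with a median of −0.02. The microglial receptor gene Cx3cr1 stood at 0.46 (95% interval −0.09 to 1.01). Ppp1r1b of the tanycyte list, which encodes the signalling protein DARPP-32 and is also made by neurons, rose by 1.06 (SE 0.269, limma adjusted p = 0.0423; kept under 11 of 20 alternatives and lost without mouse 1, 2, 3, 4, 6 or 7, 0.00796 to 0.125). In mouse 5 the list means were −1.09 for oligodendrocytes, −0.94 for astrocytes and −1.44 for microglia, against −0.33 to 0.06, −0.34 to 0.49 and −0.49 to 0.53 in the other mice, and the part of these cells in the other results of mouse 5 was not tested.

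Globin transcripts of blood cells were higher. Of 6 erythroid genes 3 were called higher (50%, against 2.23% of all genes) and 0 lower, with a median of 1.06. Hbb-bs, an adult beta-globin gene, had an FPKM of 39.0, 129 and 277 in IP against 27.0, 40.0 and 138 in input and rose by 1.25 (SE 0.287, limma adjusted p = 0.0284). Hbb-bt, its near-identical neighbour, had 10.6, 45.9 and 124 in IP against 6.78, 15.4 and 23.8 in input and rose by 1.60 (SE 0.32, limma adjusted p = 0.0135). The alpha-globin gene Hba-a2 had 7.25, 12.9 and 33.6 in IP against 1.62, 5.52 and 17.4 in input and rose by 1.23 (SE 0.287, limma adjusted p = 0.0299). All 3 ranges overlapped, and reads of the paired globin genes could have been split between copies. The list mean was −0.42 in mouse 6, against 0.73 to 1.58 in the other mice. The Hbb-bs call was lost without mouse 2, 3, 4, 5 or 7 (5.67e-04 to 0.0924), that of Hba-a2 without mouse 2, 3 or 7 (0.0435 to 0.0682) and that of Hbb-bt without mouse 4 (4.39e-04 to 0.0513). Without mice 1, 5 and 6 the median was 1.20 and 3 genes were called.

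**Figure D5:**
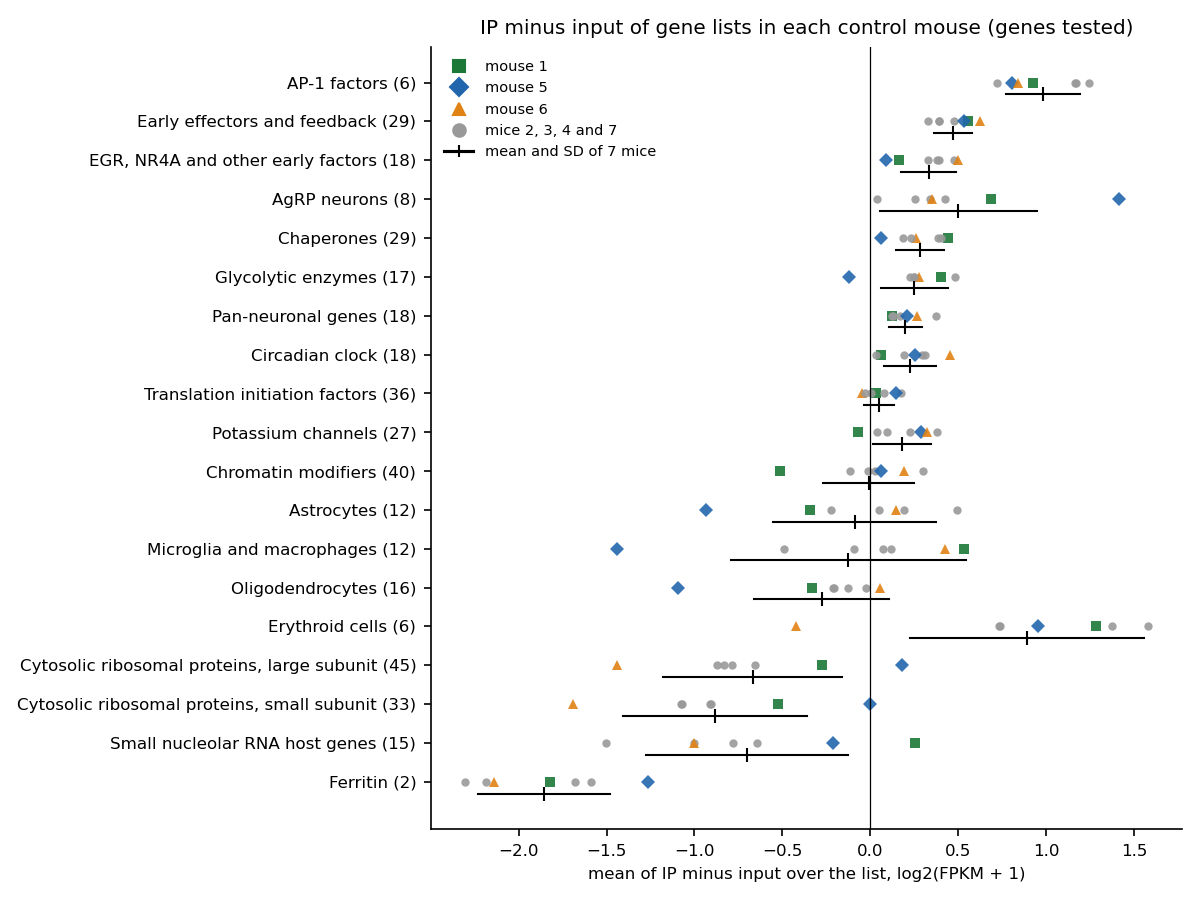
Mean of IP minus input over each gene list, on the log2(FPKM + 1) scale (x axis), in each of the 7 control mice (points; mice 1, 5 and 6 marked), with the number of genes tested in brackets and black bars for the mean and SD of the mice. The 3 early response lists lie above 0 in every mouse, the glial lists have their lowest point in mouse 5, and the ribosomal protein lists have their highest point there.

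The hM3Dq mice, which share no library with the control mice, gave a second measure of what the precipitate holds. Of the 305 genes called higher in the control IP that were tested in the hM3Dq mice, 194 (63.6%) were called higher there, against 5.41% of all genes tested in those mice, and of 362 called lower 282 (77.9%) were called lower, against 4.90%. IP over input on the log2 scale, given first for hM3Dq and then for control mice, was 1.60 and 1.69 for Fosb, 1.43 and 1.25 for Jun, −1.91 and −2.26 for Fth1, −1.74 and −1.66 for Rps27, −2.63 and −2.47 for Nrsn1 and −10.86 and −9.50 for Bc1. Genes called in the control mice whose value was near 0 in the hM3Dq mice included Gadd45b (0.07 and 1.78) and Gapdh (−0.03 and 1.51), picked after their values were seen, and the difference between the genotypes did not pass in either (limma adjusted p = 0.999). The difference between the genotypes was tested directly on the IP minus input of each mouse: limma called 0 of 14582 genes, with 448 (3.07%) at an unadjusted p under 0.05 and a smallest adjusted p of 0.908. Among the 678 calls of the control mice, 47 had an unadjusted p under 0.05 in that test. Leaving out hM3Dq mouse 5 gave 1 call, and leaving out any other mouse gave 0.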

How the data were processed

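Tissue of each mouse was homogenized and cleared by centrifugation, part of the supernatant was set aside as input and the rest was incubated with an antibody to S6 phosphorylated at serines 244 and 247, per the labels' protocols. The authors deposited 1 table of 17440 genes with normalized FPKM for each library and, per mouse, the deposited ratio of IP to input FPKM, which was used only as an alternative. HISAT2 2.1.0, StringTie 1.3.4d and the build GRCm38.p6 are named in the submitters' processing notes, while the way FPKM were normalized and whether counting used strand are not given in the sources used here. No counts were used, so precision rests on the spread between mice.

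Genes that reached an FPKM of 1 in 4 or more of 14 libraries were tested on log2(FPKM + 1) with limma 3.58.1 in R 4.3.3 (two-sided, mouse as a block, eBayes with an intensity trend), and p-values were adjusted over all 13999 genes by Benjamini-Hochberg with a threshold of 0.05. The pairing comes from the mouse tag shared by IP and input in the labels. As a check, the deviations of IP and input of a mouse from their group means correlated at −0.01 to 0.10 across genes, and 3 of 7 IPs correlated best with their own input. The hM3Dq mice were fitted alike, and the difference between genotypes was tested on IP minus input per mouse. The fit was tested on simulated data.

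The members and the 49 gene lists were chosen with earlier results of these data known. Genes named are the 15 called per direction with the smallest p, the same sign in 7 mice, an average of 5 FPKM or more in the higher fraction and a settled symbol, up to 4 called genes per list, the 2 called genes with the largest change per RNA class, and a set given whatever its result. Of a list without calls, up to 2 abundant members could be named. Some genes that this rule names are not reported here. Sequences are from RefSeq GRCm38.p6, gene types from GENCODE M21. Alternatives were other pseudocounts, filters, scalings, variance settings, fits without the block, without single mice and without mice 1, 5 and 6.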

Additional observations from a re-analysis of the deposited data

Results flagged for a closer look

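Of 166 groups of 7 mice examined, 19 held a mouse that stood apart from the other 6 by its gap relative to the range, of which chance gives about 1 in 20 groups, and 12 of the 19 were mouse 5. No explanation was tested for any of them.

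Mouse 5 was highest in Npy, at 3.31 for IP minus input on the log2 scale against 0.16 to 1.13 in the other mice, and in the mean of the POMC neuron list, at 0.71 against 0.01 to 0.26. It was lowest in the myelin gene Mal (−2.59 against −1.12 to −0.17) and in the mean of the oligodendrocyte list (−1.09 against −0.33 to 0.06). Its decreases were smallest or turned in Selenow (−0.39 against −2.72 to −1.83), Gm28439 (−1.65 against −5.72 to −4.06), Snhg12 (0.21 against −1.71 to −1.01), Rpl13a (−0.00127 against −2.40 to −1.86) and Eif3f (0.0812 against −1.22 to −0.89). The mean of the elongation and poly(A) factor list was 0.23 in mouse 5 against −0.26 to −0.06, that of the glycolytic list −0.12 against 0.22 to 0.48, and Pnmal2 was 0.64 against 0.85 to 0.96.

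Mouse 6 had lower globin values than the others. Its IP minus input was −0.65 for Hbb-bt against 1.40 to 2.70, −0.85 for Hbb-bs against 1.00 to 2.21, and −0.42 for the mean of the erythroid list against 0.73 to 1.58. Ccnb1ip1 fell furthest in that mouse, at −6.65 against −5.54 to −4.79. Mouse 1 stood apart in Egr3, at 2.47 against 0.76 to 1.50, and in Jun, at 0.45 against 1.18 to 1.51. Mouse 4 stood apart in Hba-a2, at 3.08 against 0.68 to 1.13.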

How the results depend on the processing

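Of 98 entries named here and called, 53 kept their call under every alternative that could be run, and none reversed. The limma count of 678 became 1191 with 1 fit of all libraries and 312 without the eBayes trend, and it ranged from 330 to 768 when each mouse was left out in turn, with 124 to 360 higher and 202 to 439 lower. Without the replicate block the count was 805, so the pairing by mouse did not add calls, and 91 of the 98 named calls were kept. Median ratio scaling gave 279 higher and 401 lower, and quantile normalization 366 higher; the medians of all genes were then 0.00 and 0.02. The test between genotypes gave 0 to 1 call when each mouse was left out. The values of genes with no call turned sign: without mice 1, 5 and 6 Pmch stood at −0.20, Pomc at 0.0209, Mettl27 at −0.0771 and Trip4 at 0.0324, and the Snhg14 entry of higher FPKM at 0.25 with quantile normalization. When each mouse was left out that entry ranged from −0.25 to 0.0968, Pmch from −0.0655 to 0.29, Ghrh from −0.18 to 0.52, Mettl27 from −0.11 to 0.22, Trip4 from −0.13 to 0.0230 and Taf6l from −0.13 to 0.47. Of 196 list medians compared, 191 moved by less than 1 SD over mice. The others were AP-1 factors (1.23), early effectors (0.49) and POMC neurons (0.49) with a pseudocount of 0.1, and early effectors (0.21) and kisspeptin and tachykinin neurons (0.07) without mice 1, 5 and 6. The causes were not tested. Low FPKM and 7 mice limit what can be called, and the number of reads is unknown.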
